A study of Mus musculus with 10 samples.

Results

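The Hoxd cluster was examined for H3K27me3 in WT and IκBα KO mouse embryos, in the long-term hematopoietic stem cells (LT-HSCs) of the fetal liver. Its 9 members, Hoxd13, Hoxd12, Hoxd11, Hoxd10, Hoxd9, Hoxd8, Hoxd4, Hoxd3 and Hoxd1, were taken by name from the 21938 protein-coding genes of the GENCODE M21 annotation. They lie within 96.8 kb at chr2:74668310-74765142 (GRCm38), all on the plus strand, from Hoxd13 at the low coordinate to Hoxd1 at the high coordinate. H3K27me3 was mapped by CUT&Tag, in which an antibody guides the Tn5 transposase to the mark so that the sequenced fragments lie where the mark is. Of the 10 samples of the series, 6 were used: 3 WT and 3 KO libraries of LSKCD48-CD150+ cells sorted from E14.5 fetal liver. The KO embryos carried a germline knockout of Nfkbia, the gene of the NF-κB inhibitor IκBα (allele Nfkbia tm1Bal), and came from matings of heterozygous carriers. The knockout was in every cell of the embryo, so cells outside the sorted population lacked IκBα too, and some of the mice mated in the study also carried a Gfi1:tomato reporter. Replicates 1 and 2 of both genotypes were sequenced with 75 bp reads and replicate 3 of both with 50 bp reads. The remaining 4, in which IκBα itself was mapped, were not used here.

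Hox genes encode homeodomain transcription factors that give cells their position along the body axis, and in the limb the Hoxd genes at the Hoxd13 end act most distally. They stand in the genome in the order in which they are used along the axis, and anterior members are known to respond to retinoic acid through response elements in the cluster. In cells that do not use them, Hox clusters are classical targets of the Polycomb repressive complex PRC2, which writes H3K27me3 over broad domains. CpG-rich DNA is where PRC2 is typically found in mammals.

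The 10 promoter entries for the 9 members in RefSeq (GRCm38, Hoxd11 has a pair) differed widely in CpG content, and those of the extremes are printed here because they differ in how many libraries had a peak over them. Each is the 250 bases before the annotated start, 5′ to 3′ on the plus strand, with every CpG in capitals. The Hoxd11 entry at chr2:74682073-74682322 and the Hoxd1 entry at chr2:74762730-74762979 were overlapped by a peak in all 6 libraries and held 20 and 24 CpG. The Hoxd4 entry at chr2:74721728-74721977 was overlapped in 1 library, WT replicate 2, and held 3. The Hoxd13 entry at chr2:74667975-74668224 held the most, 31, and was overlapped in 3 libraries. It was chosen for printing after its values were seen, because it does not follow the order of the other 3.
Hoxd11: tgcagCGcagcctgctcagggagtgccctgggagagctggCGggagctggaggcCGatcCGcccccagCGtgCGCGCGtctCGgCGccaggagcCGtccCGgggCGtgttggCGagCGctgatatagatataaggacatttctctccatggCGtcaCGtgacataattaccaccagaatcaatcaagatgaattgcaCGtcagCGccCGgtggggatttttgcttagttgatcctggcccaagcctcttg
Hoxd1: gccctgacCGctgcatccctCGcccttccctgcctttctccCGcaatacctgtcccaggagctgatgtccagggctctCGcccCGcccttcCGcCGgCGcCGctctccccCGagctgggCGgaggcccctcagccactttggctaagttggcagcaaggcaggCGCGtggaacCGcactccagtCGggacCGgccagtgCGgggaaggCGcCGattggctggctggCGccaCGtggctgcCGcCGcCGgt
Hoxd4: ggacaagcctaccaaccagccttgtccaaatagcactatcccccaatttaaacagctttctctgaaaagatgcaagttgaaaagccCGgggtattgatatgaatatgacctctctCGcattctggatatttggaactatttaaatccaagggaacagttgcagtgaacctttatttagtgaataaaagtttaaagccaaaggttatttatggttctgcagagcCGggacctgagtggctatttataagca
Hoxd13: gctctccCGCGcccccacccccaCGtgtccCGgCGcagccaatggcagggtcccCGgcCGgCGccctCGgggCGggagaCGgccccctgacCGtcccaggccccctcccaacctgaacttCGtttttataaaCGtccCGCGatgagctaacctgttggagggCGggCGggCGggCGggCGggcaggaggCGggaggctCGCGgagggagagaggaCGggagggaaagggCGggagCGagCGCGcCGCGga
Over all 32851 promoter entries of the same length, the median was 6 CpG. The Hoxd13, Hoxd1 and Hoxd11 entries had as many CpG as or more than 95.4%, 89.3% and 83.7% of them, and the Hoxd4 entry 37.8%. Of the other entries, Hoxd10 held 20 CpG, Hoxd9 13, Hoxd3 12, Hoxd12 10, Hoxd8 6 and the upstream Hoxd11 entry 2, and they were overlapped in 5, 5, 3, 4, 3 and 5 libraries. The upstream Hoxd11 entry, with the fewest CpG, was thus overlapped more often than the Hoxd13 entry, with the most.

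The libraries were unequal in the number and strength of their peaks. The authors called peaks in each library separately, and WT replicates 1 to 3 had 4160, 6013 and 1047 peaks, against 4904, 5157 and 2325 for KO. The median of the highest fragment coverage in a peak was only 6 to 10. WT replicate 3 stood apart, with the fewest peaks, and KO replicate 3 was next. Results are therefore also given for replicates 1 and 2. Of 10 genes that mark LT-HSCs and other blood cells, such as Kit, Slamf1 and Runx1, 0 had a promoter peak in any library, where the share over all 21938 protein-coding genes was 15.8%. Of 14 genes of hepatoblasts, endothelium, erythroid cells, macrophages and mesenchyme, 3 had a promoter peak in at least 1 library, namely the mesenchymal genes Pdgfra (6 libraries) and Col1a1 (4) and the endothelial gene Kdr (1). These peaks carry a repressive mark, so a marker of the sorted cells is read by their absence, and lists this short set no firm contrast with that share.

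H3K27me3 covered most of the Hoxd cluster in the deeper libraries of both genotypes. Of the cluster interval, 56.1% lay inside peaks in WT replicate 1, 80.5% in replicate 2 and 3.83% in replicate 3. In KO the values were 72.5%, 72.5% and 26.2%. The KO values for replicates 1 and 2 lay between the WT values for the same replicates, and both replicate 3 libraries lay far below. The mean was 46.8% ± 39.2 (SD, n = 3) in WT and 57.0% ± 26.7 (SD, n = 3) in KO, a difference of 10.2 percentage points that was smaller than the spread within either genotype (exact two-sided permutation test, p = 0.7, adjusted over 4 measures 1). With 3 libraries against 3, the smallest p this test can give is 0.1. The difference was 4.15 percentage points in replicates 1 and 2 and 22.4 in replicate 3, and without WT replicate 3 it became -11.3.

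**Figure D1:**
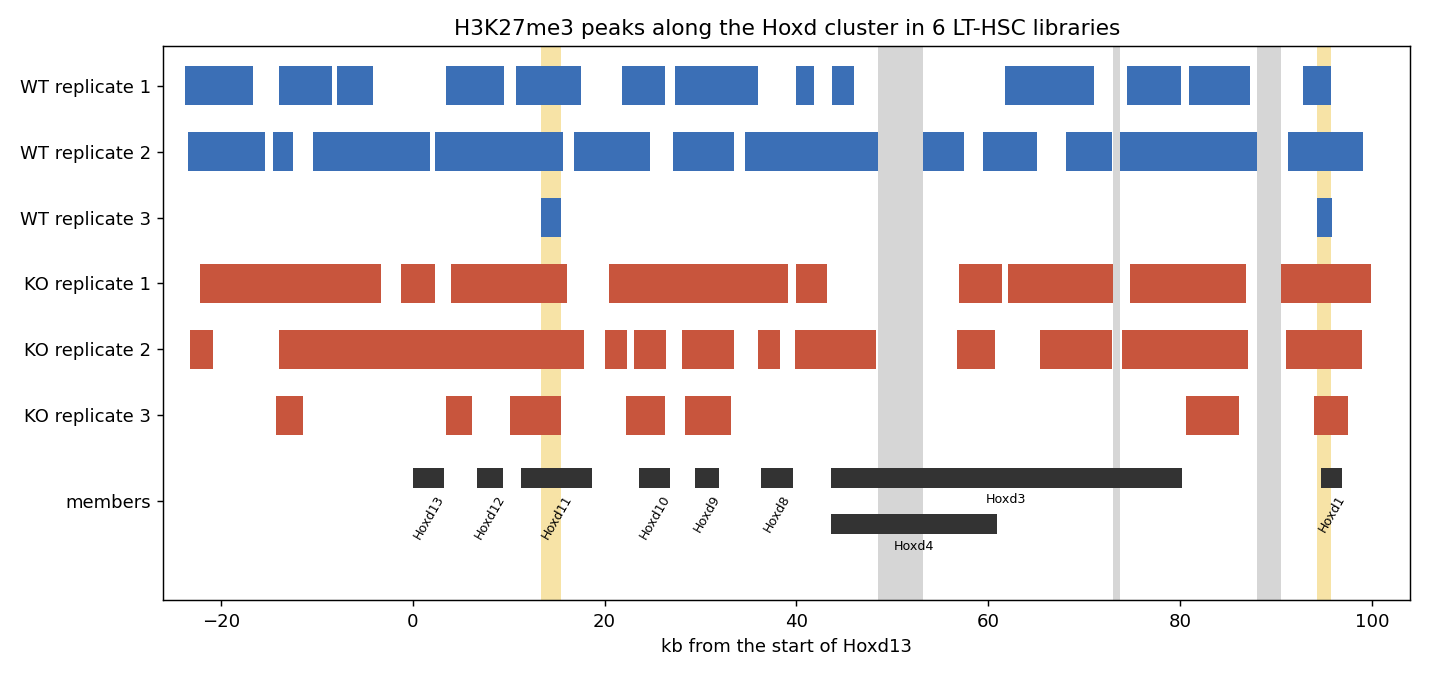
Peaks of H3K27me3 (bars) in the 3 WT (blue) and 3 KO (red) libraries along the Hoxd cluster, in kb from the start of Hoxd13, with the bodies of the 9 members in black. Yellow bands mark the 2 stretches inside a peak in all 6 libraries, at Hoxd11 and Hoxd1, and grey bands the 3 gaps without a peak in any library.

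The peaks of the cluster were broad. In WT replicates 1 to 3, 10, 10 and 2 peaks touched it, and in KO 8, 10 and 6. Their median width was 5820, 7862 and 1852 bp in WT, and 10143, 6476 and 4462 bp in KO. In the same order, the median width of all peaks of these libraries was 3475, 3522, 1727, 3624, 3571 and 2835 bp, so the Hoxd peaks were the wider in each of the 6 libraries. The widest was 31.7 kb in KO replicate 2, from chr2:74654409 to 74686145, and ran without a break over Evx2, Hoxd13, Hoxd12 and most of Hoxd11. By total signal, the fragment coverage summed along a peak, it ranked 2 of the 5157 peaks of that library. The same stretch was broken into several peaks in WT replicates 1 and 2 and in KO replicate 1. SEACR joins unbroken fragment coverage into blocks and keeps those with the largest total signal, so a gap between peaks may hold blocks of lower total signal.

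All 9 members had a peak in the promoter, which reached from 5 kb before to 100 bp after each annotated transcription start site (TSS), in WT replicates 1 and 2 and in KO replicates 1 and 2. Over all 21938 protein-coding genes the share was 10.6% and 12.9% for WT and 12.9% and 12.2% for KO, and 8.53% of genes had a peak in all 4. In replicate 3, 2 members had one in WT (3.46% of all genes) and 6 in KO (8.06%). The mean was 6.67 ± 4.04 members (SD, n = 3) in WT and 8 ± 1.73 (SD, n = 3) in KO, which did not differ beyond the spread (exact two-sided permutation test, p = 1). Without WT replicate 3 the difference of means turned from 1.33 members to -1. A promoter peak in 3 of 3 libraries was found for 2 members in WT (3.01% of all genes) and 6 in KO (7.12%), and for 2 members, Hoxd11 and Hoxd1, in all 6 libraries (2.65%). Hoxd12, Hoxd10, Hoxd9 and Hoxd8 therefore had one in 3 of 3 KO but not 3 of 3 WT libraries (4.48% of all genes), and 0 members the reverse (0.36%). In WT these 4 lacked a peak only in replicate 3, and with replicates 1 and 2 alone all 9 members were called in every library of both genotypes. In KO replicate 3 the promoter peaks of Hoxd12 and Hoxd8 lay more than 100 bp from any TSS of these genes and covered 0% of their bodies. The one counted for Hoxd8 was the peak over Hoxd9 (chr2:74696699-74701515).

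Because several neighbouring members lie within 5 kb of each other, their promoter windows can hold the peak of the next gene, so the start sites themselves were examined. With a window of 100 bp either side of a TSS, 7 members had a peak in all 4 libraries of replicates 1 and 2 (7.3% of all genes). For Hoxd4 this count joins different starts, and none of its starts had a peak in all 4. The other two, Hoxd13 and Hoxd8, had one at the TSS in WT replicate 2 and both KO libraries, but their promoter peak in WT replicate 1 lay away from the TSS.

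**Figure D2:**
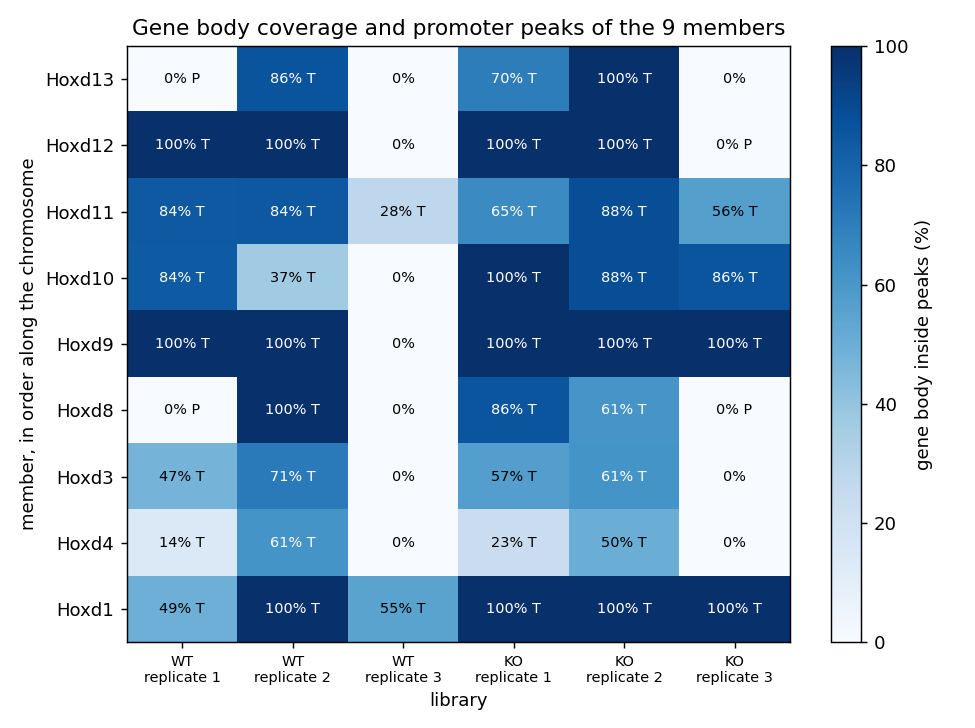
Share of each gene body inside peaks (colour and printed percent) for the 9 Hoxd members (rows, in chromosome order) in the 6 libraries (columns). T marks a peak within 100 bp of a TSS, and P a promoter peak that is not at a TSS. Hoxd11 and Hoxd1 carry T in every column, and WT replicate 3 holds no other peak.

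Hoxd13, which patterns digits and the genital tubercle, had 0%, 86.0% and 0% of its body inside peaks in WT replicates 1 to 3 and 70.2%, 100% and 0% in KO. Hoxd12, also a gene of the distal limb, was covered over its full length in replicates 1 and 2 of both genotypes and over 0% in replicate 3 of both. In both genes the WT and KO values overlapped.

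Hoxd11, which acts with Hoxa11 in the forearm and kidney, had peaks over its body in all 6 libraries, with 84.0%, 84.4% and 27.7% covered in WT and 65.1%, 88.3% and 56.4% in KO. Its second TSS (chr2:74682323) lay in a peak in every library, and its upstream TSS (chr2:74679557) in all but WT replicate 3. It was 1 of the 2 members that the shallowest library still called.

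Hoxd10, known for its role in lumbar motor neurons, had 83.5%, 36.5% and 0% of its body inside peaks in WT and 100%, 88.3% and 85.7% in KO. It was the only member whose KO values all lay above its WT values, by 51.3 percentage points on average (exact two-sided permutation test, p = 0.1, the smallest 3 against 3 allows, and 0.9 adjusted over the 9 members). Among 3611 protein-coding genes with a peak over the body in any library, 1.86% had all KO above all WT values and 0.111% all KO below all WT values, which was true of 0 members. In WT replicate 2 the uncovered part was the downstream end of the gene, in a gap of 2.33 kb. Without the replicate 3 libraries the difference was 34.1 percentage points. The coverage per base of the peaks over its body, relative to the median peak of the library, was 1.15 and 1.32 in WT replicates 1 and 2. In KO it was 1.16, 1.05 and 1.05, so by this measure the KO values did not all lie above the WT values.

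Hoxd9, a gene of the proximal limb and of vertebral patterning, was fully covered in all libraries but WT replicate 3, where coverage was 0%. Hoxd8, its neighbour, had 0%, 100% and 0% for WT, against 85.7%, 60.9% and 0% for KO. For the 8 members other than Hoxd10, the p-values were 0.4 to 1 (exact two-sided permutation tests, n = 3 per genotype).

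Hoxd3, which patterns the first cervical vertebrae, and Hoxd4, a gene of the hindbrain and neck, overlap each other. They share a distal start, at chr2:74711927 and 74711929, so a peak there cannot be given to either gene. Over the 36.5 kb of the annotated Hoxd3 body, 47.4%, 71.1% and 0% were covered in WT and 57.0%, 61.3% and 0% in KO. Over Hoxd4 the values were 13.7%, 61.4% and 0% in WT and 22.8%, 50.3% and 0% in KO. Replicate 3 had no peak over either gene in either genotype. The internal Hoxd4 TSS at chr2:74721978, whose promoter is printed above, was covered only in WT replicate 2. The most downstream Hoxd4 TSS (chr2:74727074) was covered only in KO replicates 1 and 2. Of the 5 internal starts of Hoxd3, those at chr2:74736515, 74745674 and 74745722 had a peak in all 4 libraries of replicates 1 and 2. The start at chr2:74732913 lacked one in KO replicate 2, and that at chr2:74739619 in WT replicate 1.

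Hoxd1, which in the mouse is needed in pain-sensing neurons, closes the cluster and had 49.5%, 100% and 54.9% of its body inside peaks in WT and 100% in each KO library. Its TSS lay in a peak in all 6 libraries. The KO mean was 31.9 percentage points higher, with WT replicate 2 as high as KO (exact two-sided permutation test, p = 0.4, adjusted over the 9 members 1).

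Signal within the Hoxd peaks was close to that of a typical peak. Coverage per covered base was divided by the median of the same ratio over all peaks of the library, since the deposited signal is not scaled to depth. The relative coverage of the WT libraries was 1.13, 1.12 and 0.822 and that of the KO libraries 1.17, 1.10 and 0.903, above 1 in replicates 1 and 2 and below 1 in replicate 3 of both genotypes. The KO minus WT difference was 0.05 on the log2 scale (exact two-sided permutation test, p = 0.7), against an SD of 0.26 in WT and 0.19 in KO (n = 3 each). It was 0.27 without scaling to the library, 0.10 by maximum signal and 0.0077 with the strongest peaks only, and it turned to -0.10 without WT replicate 3 and to -0.02 without KO replicate 1. Fragment coverage in the cluster peaked at 13, 14 and 7 for WT and at 15, 15 and 13 for KO. At single genes in replicates 1 and 2, relative coverage ran from 0.851 at Hoxd4 in WT replicate 1 to 1.38 at Hoxd9 in KO replicate 2.

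At regions called in all 6 libraries, total signal was tested with limma. Merging the peaks of all libraries gave 4 regions that touch the cluster, of which 2 were called in every library. The first (chr2:74644590-74716853) ran from beyond Evx2 over Hoxd13 to Hoxd8 and into the 5′ part of Hoxd3 and Hoxd4. Its total signal in WT was 184563, 264093 and 4435, the last being the lowest of all, and in KO 249117, 228513 and 70747. After log2 values were centred on the median of each library, KO minus WT was 0.73 (SE 0.69, limma adjusted p = 0.992). By mean signal per covered base it was 0.04 and by maximum signal 0.34. The second (chr2:74758819-74768165) held Hoxd1, with a total signal of 10695, 30204 and 3524 for WT against 40469, 30967 and 12649 for KO. Its KO minus WT difference was 0.59 (SE 0.38, limma adjusted p = 0.992), and 0.08 by mean signal per covered base. Without WT replicate 1 it was 0.26. Of the 717 regions tested genome-wide, 0 (0%) passed an adjusted p of 0.05, and 8 had an unadjusted p under 0.05. The 2 regions between, over Hoxd4 and Hoxd3 (chr2:74721474-74741279) and over the 3′ end of Hoxd3 (chr2:74742069-74756335), were called in 4 and 5 libraries and so were not among the 717. With regions called in at least 3 libraries, where a library without a call was given its smallest called total signal, their differences were 0.15 and 0.23, and in replicates 1 and 2 alone 0.30 and -0.22 (limma adjusted p of 0.999 or above). Without WT replicate 3 the difference of the first region became -0.24.

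Gaps without a peak divided the cluster. The WT libraries had 11, 9 and 3 gaps and the KO libraries 7, 9 and 6. The longest measured 15.7, 4.62 and 78.8 kb for WT, and for KO 13.8, 8.45 and 47.4 kb, far longer in both replicate 3 libraries than in the others. The mean was 33.0 kb in WT and 23.2 kb in KO, against an SD of 40.0 kb in WT and 21.1 kb in KO (exact two-sided permutation test, p = 0.8, n = 3 each). In replicates 1 and 2 the KO mean was 0.972 kb longer. In every library of replicates 1 and 2, the longest gap lay wholly or mostly over the stretch that Hoxd3 and Hoxd4 share.

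The libraries had 3 gaps in common. They held 7.89 kb, or 8.15% of the cluster, and they were also the only bases uncovered in all 4 libraries of replicates 1 and 2, since the replicate 3 peaks covered no base that those 4 lacked. The longest (4.62 kb, chr2:74716854-74721473) lay in Hoxd3 and Hoxd4 and ended just before the internal Hoxd4 start. The others were 0.789 kb in Hoxd3 (chr2:74741280-74742068) and 2.48 kb in Haglr, the non-coding gene that runs antisense from the Hoxd1 start (chr2:74756336-74758818). All 3 contained 0 bases of annotated exon. Whether they hold blacklisted regions, which the authors removed, was not tested. At the other extreme, 3.58 kb were inside a peak in all 6 libraries. These were 2.06 kb at the second Hoxd11 start (chr2:74681700-74683760) and 1.52 kb at the start shared by Hoxd1 and Haglr (chr2:74762529-74764049), of which 44.1% and 58.6% were exon.

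CpG density was higher in bases called in more libraries, though not at every step. It was 5.83 CpG per kb in bases called in 0 libraries, 17.6, 19.1, 32.4, 21.7 and 39.4 in bases called in 1 to 5, and 88.5 in those called in all 6. The whole cluster had 28.0 CpG per kb and chromosome 2 had 8.53. Over the rest of chromosome 2 it was 8.26 in uncalled bases, 14.02, 16.7, 19.0, 24.0 and 39.7 in bases called in 1 to 5 libraries and 58.2 in those called in all 6, higher at every step. The Hoxd cluster departed from this between 3 and 4 libraries, where its density was lower in the latter. The 3 common gaps held 5.84, 2.53 and 6.85 CpG per kb, each below the chromosome. The 2 common peak stretches held 94.1 and 80.9. The share of repeat-masked sequence, where reads are harder to place uniquely, was 20.9%, 10.3% and 32.2% in the 3 gaps, against 14.4% in the cluster and 12.6% and 6.31% in the 2 common stretches. Its part in the gaps was not tested.

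**Figure D3:**
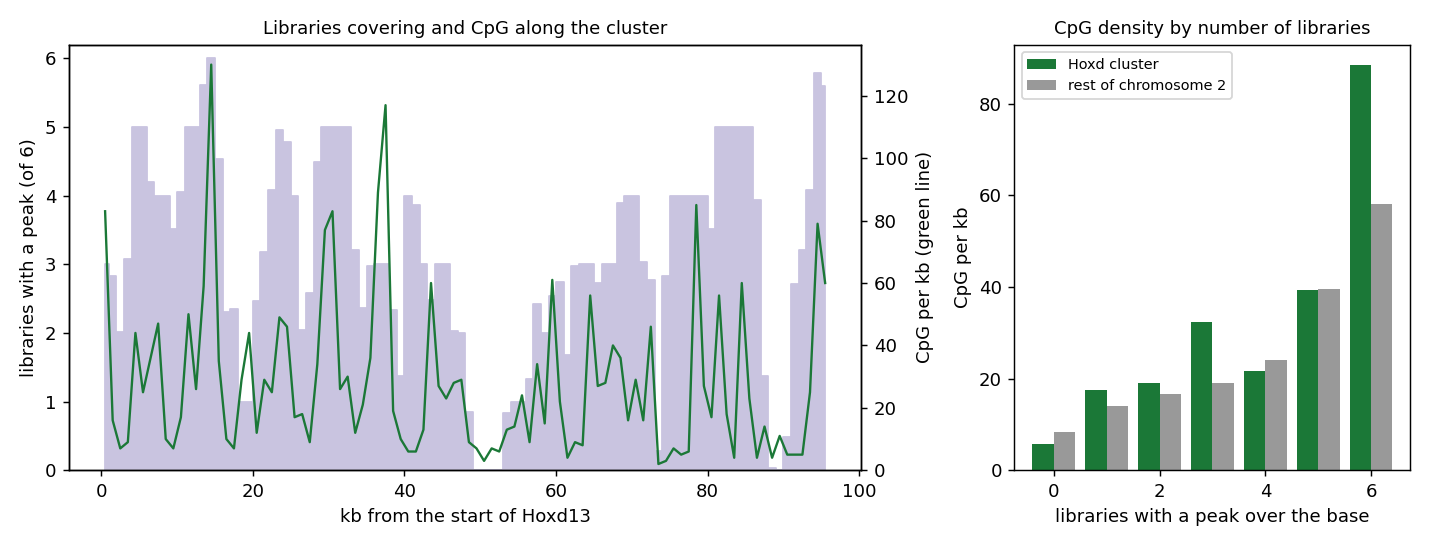
Left, mean number of libraries (of 6) with a peak in 1 kb steps along the cluster (purple) and CpG per kb (green line, right axis), in kb from the start of Hoxd13. Right, CpG per kb of bases grouped by the number of libraries with a peak over them, in the Hoxd cluster (green) and the rest of chromosome 2 (grey), which rises from 5.83 to 88.5 and from 8.26 to 58.2.

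Retinoic acid response elements were searched because the study asks about retinoic acid signalling in these cells. The search took direct repeats of a half-site, which was allowed to be AGGTCA, to be AGTTCA, to be GGGTCA or to be GGTTCA, in any pairing, with 2 or 5 bases between them (DR2 and DR5), on both strands. The cluster held 1 match, a DR5 on the plus strand at chr2:74741540-74741556 in an intron of Hoxd3, shown with 8 bases on either side and the half-sites in capitals.
DR5: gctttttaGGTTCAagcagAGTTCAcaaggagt
It lay inside the common gap of 0.789 kb, so 0 of 6 libraries had a peak over it. Of 1831 windows of the same length on chromosome 2, 69.1% held at least 1 match, so 1 match is usual for this length. None of the 10 Hoxd promoter entries held a match, against 0.262% of all entries. These letters are a description of the sequence and do not show a receptor there.

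Bases called in 1 genotype were few. Of 59.9 kb of the cluster called in both KO replicates 1 and 2, 2.94 kb (4.91%) were called in neither WT replicate 1 nor 2, against 10.1% over the genome. Of 47.5 kb called in both WT libraries, 0.528 kb (1.11%) were called in neither KO library, against 7.60%. Most of the former was a single stretch of 2.04 kb (chr2:74725734-74727771) over Hoxd4 exons, its most downstream start and the microRNA gene Mir10b. In WT replicate 2 this stretch was exactly the gap between a pair of peaks, and in WT replicate 1 it lay in the gap of 15.7 kb. No test was made of this stretch, which was found by looking.

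The domain did not stop at Hoxd13. In replicates 1 and 2 the first peak of the domain began 22.2 to 23.7 kb before Hoxd13, past Evx2, a homeobox gene of the distal limb that had a promoter peak in these 4 libraries. At the other end the last peak touching the cluster ended within Hoxd1 in WT replicates 1 and 3 and at most 3.02 kb beyond it in the other libraries. WT replicate 2 had a further, separate peak downstream of Hoxd1 at chr2:74787356-74790328, and the other libraries had none within 30 kb. The flanking genes Lnpk, which shapes the endoplasmic reticulum, Mtx2, a mitochondrial import gene, and Hnrnpa3, an RNA-binding protein gene, had 0 promoter peaks. Of the non-coding genes in the cluster, Haglr had a promoter peak in all 6 libraries and Hoxd3os1 in 3.

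Among the other Hox clusters, the coverage of Hoxc lay nearest to that of Hoxd. In WT replicates 1 to 3 and then KO replicates 1 to 3, Hoxc was covered over 66.9%, 78.3%, 1.26%, 83.5%, 69.2% and 17.9%. Hoxa was covered over 10.7% in WT replicate 3 and 19.5% to 29.5% in replicates 1 and 2, and Hoxb over 3.23% in WT replicate 3, 15.3% in KO replicate 3 and 19.0% to 34.0% in replicates 1 and 2. Hoxd exceeded Hoxa by 31.2 percentage points (SD 24.7, higher in 5 of 6 libraries, exact two-sided sign-flip permutation test over libraries, p = 0.0625, adjusted over 3 clusters 0.0938). It exceeded Hoxb by 32.2 (SD 21.4, higher in 6 of 6, at the smallest p this exact test allows, adjusted 0.0938). Neither passed 0.05 after adjustment. From Hoxc it differed by -0.92 (SD 8.03, higher in 4 of 6, p = 0.844 in the same exact test). The Hoxb interval is 173.9 kb long and includes the long distance to Hoxb13.

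**Figure D4:**
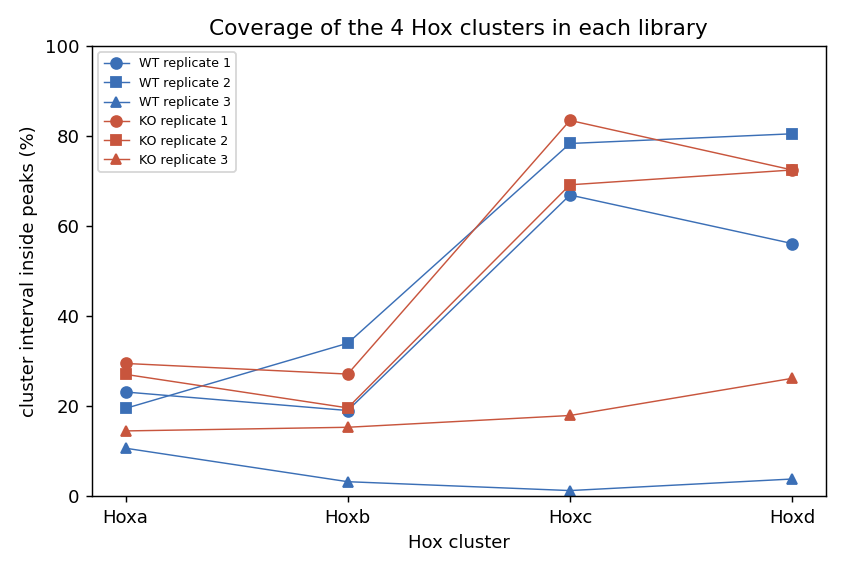
Share of each Hox cluster interval inside H3K27me3 peaks in the 3 WT (blue) and 3 KO (red) libraries, joined by a line within each library. In replicates 1 and 2 Hoxc and Hoxd lie between 56.1% and 83.5%, and Hoxa and Hoxb between 19.0% and 34.0%.

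By gene, all 9 Hoxc genes had a promoter peak in all 4 libraries of replicates 1 and 2, as all 9 Hoxd genes did, against 4 of 11 Hoxa and 4 of 10 Hoxb genes. Hoxd9 had a promoter peak in 5 libraries, as had its paralogs Hoxb9 and Hoxc9, whereas Hoxa9, which blood stem cells use, had one in 3 and 0 peaks over its body. Hoxd13 had one in 4 libraries, and Hoxa13, Hoxb13 and Hoxc13 in 5 each. Among 16 cofactors and regulators of Hox genes, 6 had a promoter peak in at least 2 libraries (13.4% of all protein-coding genes). They were Pknox2, Cdx1 and Cdx2 (6 libraries each), Meis2 and Meis3 (5 each) and Cdx4 (3), where Meis and Pknox proteins bind DNA with Hox proteins and Cdx proteins switch Hox genes on. Meis1, the Pbx genes, Kmt2a and Men1 had 0. Of 12 genes for PRC2 subunits and H3K27 demethylases, 0 had a promoter peak in any library, beside the 15.8% of all genes given above.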

How the data were processed

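H3K27me3 CUT&Tag peaks of 3 WT and 3 KO libraries were analysed. The authors trimmed reads (Trim Galore 0.6.6), aligned them to GRCm38 (Bowtie2 2.4.4), removed reads of low mapping quality, duplicates and multimappers, and ran the peak caller on every library separately (SEACR 1.3, stringent mode, no IgG control), keeping the top 0.5% of blocks by total signal. The names of the files state that blacklisted regions had been removed, and the list used is not given in the sources used here, so a gap could in principle be such a region. The deposited signal columns hold the summed and the highest fragment coverage of each peak, without scaling to depth. No read totals were used, so no counting interval is given.

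Peaks were set against GENCODE M21 gene models with at least 1 bp of overlap. A promoter was 5 kb upstream to 100 bp downstream of a TSS. Coordinates are 1-based. Genotypes were compared with the two-sided exact permutation test, which has 20 assignments, Hox clusters by sign-flip tests over libraries, and regions called in all 6 libraries by limma with Benjamini-Hochberg adjustment at 0.05, which was tested on simulated data. Each test took the library as its unit, and the p-values refer to these libraries only. For these data the paper's figure legend gives fewer independent experiments than there are libraries per genotype. Its reporting summary calls the replicates independent. Libraries of the same number deviated together from their genotype means across the 717 regions (r of 0.27, 0.31 and 0.47), so a replicate block was fitted as an alternative. The members, lists and tests were chosen with earlier results of these data known, and the body coverage tests per gene were added after the peaks had been seen. All 9 members were named, other Hox and regulator genes by counts with the Hox9 and Hox13 paralogs, and of the regulators those with a promoter peak in at least 2 libraries. Promoter sequences came from RefSeq, in which all 9 members matched. Python 3.11.15, numpy 2.4.6, matplotlib 3.10.9, R 4.3.3 and limma 3.58.1 were used.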

Additional observations from a re-analysis of the deposited data

How the results depend on the processing

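Of 127 values recomputed under alternatives, 111 kept their side of the threshold without changing sign (1 of them, the difference in members with replicates 1 and 2 alone, became 0) or, for counts, stayed within 1.5 times, 13 changed direction, all without passing a test, and 3 counts moved by more than 1.5 times. The exact tests of the 4 cluster-wide genotype differences cannot give a p below 0.1. Their side of the threshold was therefore fixed by the design, and only a change of sign could show in them. With the 1047 strongest peaks of each library, and with peaks above the library median, 1 member had a promoter peak in 3 of 3 WT libraries in place of 2, and 4 and 5 members in 3 of 3 KO libraries in place of 6, and Hoxd minus Hoxc became 2.66 and 1.07 percentage points in place of -0.92. With replicates 1 and 2 alone both counts were 9, the longest gap was 0.972 kb longer in KO, and the first limma region differed by -0.00039 (log2). By mean signal per covered base, the limma differences were 0.042 for the first and 0.076 for the Hoxd1 region. By maximum signal, the Hoxd1 region differed by -0.032. Leaving out each library in turn gave -11.3 to 27.1 percentage points for KO minus WT coverage, -1 to 2.5 members, -24.0 to 13.1 kb for the longest gap, -0.10 to 0.16 (log2) for relative coverage, -2.75 to 1.10 percentage points for Hoxd minus Hoxc and -0.24 to 1.26 (log2) for the first and 0.26 to 0.82 for the Hoxd1 limma region. Without WT replicate 3, but with KO replicate 3 kept, the 4 cluster-wide differences and that of the first region changed sign. Without both replicate 3 libraries, coverage (4.15 percentage points) and relative coverage (0.013, log2) kept theirs and the difference in members was 0. With 100 bp either side of a TSS the KO count was 4. The other changes of sign came from leaving out KO replicate 1 (relative coverage, -0.02, and Hoxd minus Hoxc) and WT replicate 1 (Hoxd minus Hoxc). All 12 limma alternatives called 0 regions. In the paired analysis with a replicate block, the differences were 10.2 percentage points, 1.33 members, -9.81 kb and 0.05 (log2), with exact sign-flip p of 0.5, 1, 0.75 and 0.5 where 3 pairs allow no less than 0.25, and limma with the block called 0 regions, with 25 in place of 8 at an unadjusted p under 0.05, so it changed no call. Low fragment coverage within peaks and 3 libraries per genotype, 1 of them shallow in each, limit every genotype comparison, and a base outside a called peak may still carry the mark.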
